A study of Mus musculus with 4 samples.

Results

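Marginal zone-like B cells of the mouse spleen were taken from 2 single-cell RNA libraries, an aged and a young spleen, as barcodes with B cell RNA, no RNA of the follicular receptor gene Fcer2a and RNA of genes known from marginal zone B cells. A barcode qualified as a cell with at least 500 unique molecular identifiers (UMIs, random tags that each mark an RNA molecule), at least 250 genes and at most 10% mitochondrial UMIs. A member then had at least 5 UMIs of Cd79a, Cd79b and Ms4a1 together, 0 of Fcer2a, at least 2 of Cr2, Cd1d1, Dtx1 and Cd9 together, 0 of Cd3d, Cd3e and Cd3g, and fewer than 20 of Jchain. The rule kept 387 cells, 219 from the aged and 168 from the young spleen, of 12548 cells in the 2 spleen libraries (5647 aged, 6901 young) and 35204 in the series. They were set against the Fcer2a-positive B cells chosen by the same criteria, 1237 aged and 1832 young.

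The study sorted leukocytes with high CD45 from brain and spleen and made 4 libraries, an aged and a young one of each tissue, on the 10x Genomics 3' version 2 platform. The groups used here are aged spleen and young spleen of mice, and their ages in numbers, strain, sex and the number of animals behind each library do not appear in the labels. All groups share the same treatment text, which speaks of tamoxifen given ahead of a count of tdTomato-bearing NK cells, and how far it applies to these animals is not stated. All libraries are also labelled as neuroblasts, which the RNA of these cells goes against: the neuroblast genes Dcx, Sox11 and Tubb3 had 0 UMIs in the members of either spleen. Each age has 1 library, hence no replicates and no test, and every difference between ages is a difference between these libraries, and all intervals are 95% intervals for counting error only.

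Marginal zone B cells sit at the border between the white and red pulp of the spleen, where blood passes by, and respond quickly to blood-borne antigen, often without help from T cells. They carry much complement receptor CD21 (Cr2), CD1d (Cd1d1) and surface IgM (Ighm), little CD23 (Fcer2a) and little IgD, while follicular B cells, the recirculating majority, carry CD23 and much IgD. Their formation depends on the receptor NOTCH2, whose released part binds RBPJ on DNA and switches on targets such as Dtx1 and Hes1.

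The promoters of Cr2, the rule gene seen in most members, and of Dtx1, the rule gene that is a Notch target, are given from RefSeq (GRCm38.p6), from 250 bases before to 50 after the start of transcription. Both lie on the minus strand, Cr2 at chr1:195176670-195176969 and Dtx1 at chr5:120711620-120711919, and are written 5' to 3' on that strand. Capitals mark TGGGAA or its reverse complement TTCCCA, the core letters known for RBPJ binding, searched on both strands.
Cr2: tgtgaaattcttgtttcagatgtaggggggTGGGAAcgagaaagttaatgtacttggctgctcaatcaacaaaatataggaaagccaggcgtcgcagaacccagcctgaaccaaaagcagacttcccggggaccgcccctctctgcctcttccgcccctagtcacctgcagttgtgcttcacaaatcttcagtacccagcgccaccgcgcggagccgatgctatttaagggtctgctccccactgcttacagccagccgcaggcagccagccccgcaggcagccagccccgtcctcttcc
Dtx1: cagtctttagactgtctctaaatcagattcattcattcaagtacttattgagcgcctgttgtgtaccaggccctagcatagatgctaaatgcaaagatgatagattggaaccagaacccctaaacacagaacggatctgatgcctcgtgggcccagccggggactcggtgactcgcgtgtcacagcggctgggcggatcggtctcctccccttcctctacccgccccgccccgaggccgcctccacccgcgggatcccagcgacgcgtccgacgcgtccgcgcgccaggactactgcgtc
The Cr2 window held 1 match and the Dtx1 window 0, where 25.6% of 32851 RefSeq windows of 300 bases held at least 1. A match is a description of these letters only, and no match says only that they are not in this window.

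The genes that chose the cells were distributed as follows, with levels as UMIs per 1e6 UMIs of the class (CPM). Cr2 (GRCm38, chromosome 1, 195136811 to 195176716) stood at 494 CPM in aged and 538 CPM in young marginal zone-like cells, against 171 CPM in aged and 293 CPM in young Fcer2a-positive cells. Dtx1, an E3 ubiquitin ligase of the Notch pathway, stood at 256 CPM in aged and 245 CPM in young members, against 86.2 and 56.9 CPM in aged and young Fcer2a-positive cells. Cd9, a tetraspanin, had 52.6 CPM in aged and 85.3 CPM in young members, and 14.8 and 27.5 CPM in the aged and young Fcer2a-positive cells. Cd1d1, which presents lipids to NKT cells, had 45.8 CPM in aged and 60.2 CPM in young members, and 17.1 and 18.8 CPM in aged and young Fcer2a-positive cells. These contrasts were fixed by the rule and support nothing by themselves.

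Cr2 RNA was seen in 81.7% of aged and 86.9% of young members. Among NK cells, which lack the receptor, 1.47% of aged and 2.37% of young cells had a Cr2 UMI at median depths of 4517.5 and 3974 UMIs, and the level was 2.79 CPM in aged and 5.83 CPM in young NK cells. Dtx1, Cd9 and Cd1d1 are not particular to B cells. NK cells held 54.9 CPM (aged) and 43.5 CPM (young) of Dtx1, 203 and 240 CPM of Cd9, and 15.6 and 15.8 CPM of Cd1d1. T cells held 99.2 CPM (aged) and 197 CPM (young) of Dtx1, 55.1 and 61.9 CPM of Cd9, and 17.6 and 16.1 CPM of Cd1d1. The median sum of the 4 rule genes was 3 UMIs in both libraries, with highest sums of 21 in the aged and 29 in the young library. Members with a sum of exactly 2, just inside the limit, numbered 78 aged and 65 young, and 164 aged and 117 young Fcer2a-zero B cells had a sum of 1, just outside. A further 135 aged and 158 young barcodes were left out for a single Fcer2a UMI, 33 and 31 for Cd3 UMIs, and 11 aged and 0 young for Jchain. Cr2 and Dtx1 were seen together in 126 of 219 aged members (57.5%) and 82 of 168 young members (48.8%), Cr2 without Dtx1 in 53 and 64, Dtx1 without Cr2 in 31 and 17, and neither in 9 and 5.

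**Figure D1:**
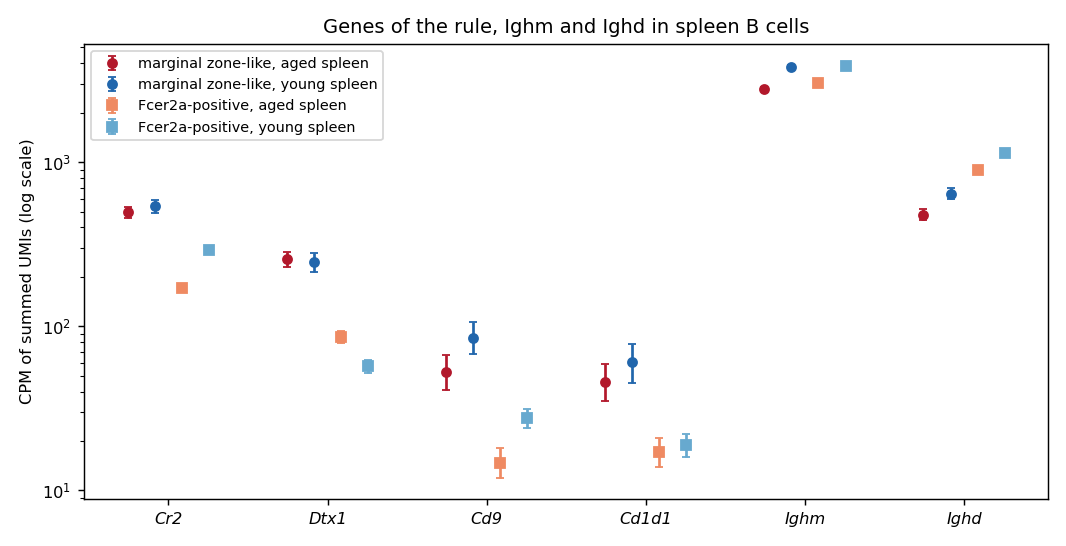
Level of the rule genes, Ighm and Ighd in UMIs per 1e6 UMIs, with marginal zone-like cells left of Fcer2a-positive cells and aged left of young spleen; bars on points are 95% Poisson intervals. The 4 rule genes are higher in marginal zone-like cells by construction, Ighm is at or below the level of Fcer2a-positive cells, and Ighd is lower.

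The label was checked against the markers. The rule's own genes were present by construction, but Ighm, which marginal zone B cells are known to carry in excess, was not higher: it had 2795 CPM in aged and 3799 CPM in young members, against 3044 CPM in aged and 3832 CPM in young Fcer2a-positive cells. The ratio of members over Fcer2a-positive cells came to 0.918 (aged) and 0.991 (young), so the fifth marker goes against the name, while Ighd pointed the other way. At the few aged barcodes that no other library shares (counted further on) the Ighm ratio was 1.20 (0.954 to 1.49) and that of Ighd 0.302 (0.146 to 0.563). Ighd had 479 CPM in aged and 643 CPM in young members, against 901 and 1131 CPM in aged and young Fcer2a-positive cells, which gives ratios of 0.532 (aged) and 0.569 (young). Ighm UMIs per Ighd UMI were 5.83 in aged and 5.90 in young members, against 3.38 in aged and 3.39 in young Fcer2a-positive cells. No Ighd UMI was found in 26% of aged and 17.9% of young members, against 4.77% and 3.33% of aged and young Fcer2a-positive cells. Low Ighd relative to Ighm was not particular to members. Fcer2a-zero B cells with fewer than 2 rule UMIs had 5.11 (aged) and 6.67 (young) Ighm UMIs per Ighd UMI. Of these non-members 14.9% (aged) and 23.3% (young) had no Ighd UMI. In the young spleen both values lay above those of members. The members are called marginal zone-like here in the sense of the rule.

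The name held unevenly across the members. Marginal zone genes that the rule did not use were compared across Fcer2a-zero B cells with 0, 1, 2, 3 and at least 4 UMIs of the rule genes. Myof, which encodes a membrane repair protein, had 11.1, 23.1, 20.8, 44.3 and 121 CPM at these steps in the aged spleen, and 14.1, 33.9, 13.5, 19.8 and 88.1 CPM in the young. S1pr3, a receptor for sphingosine 1-phosphate known from marginal zone B cells, had 2.76, 2.72, 5.21, 22.2 and 52.8 CPM in the aged spleen, and 4.71, 4.24, 6.73, 13.2 and 49.4 CPM in the young.
For both genes the step of at least 4 rule UMIs stood apart in both libraries, while cells with 2 lay near the non-members with 0 or 1. Within that step the RNA lay in the 72 aged and 57 young cells with at least 5 rule UMIs. They held all 37 aged and all 23 young UMIs of S1pr3, and 82 of 85 aged and 38 of 41 young UMIs of Myof. The 24 aged and 13 young cells with exactly 4 rule UMIs thus had no S1pr3 UMI and few of Myof. Fcrl5, an Fc receptor-like protein of marginal zone and B-1 cells, had 1.84, 8.16, 13.0, 13.3 and 31.4 CPM in the aged spleen and 0, 8.48, 33.7, 13.2 and 45.1 CPM in the young, where cells with 2 rule UMIs (16.1 to 61.9) lay above those with 0. Plac8, a small cysteine-rich protein, had 290, 292, 414, 408 and 1152 CPM in the aged spleen, with the interval at 2 UMIs (352 to 484) above both lower steps, and 543, 634, 626, 549 and 947 CPM in the young. Ighd had 801, 657, 808, 611 and 257 CPM in the aged spleen, and 847, 784, 835, 813 and 466 CPM in the young. Cells with at least 4 rule UMIs numbered 96 aged and 70 young and were also deeper, with medians of 6451 and 5735 UMIs, where members with 2 had medians of 4352.5 and 4011. The part of depth in this gradient was not tested.

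**Figure D2:**
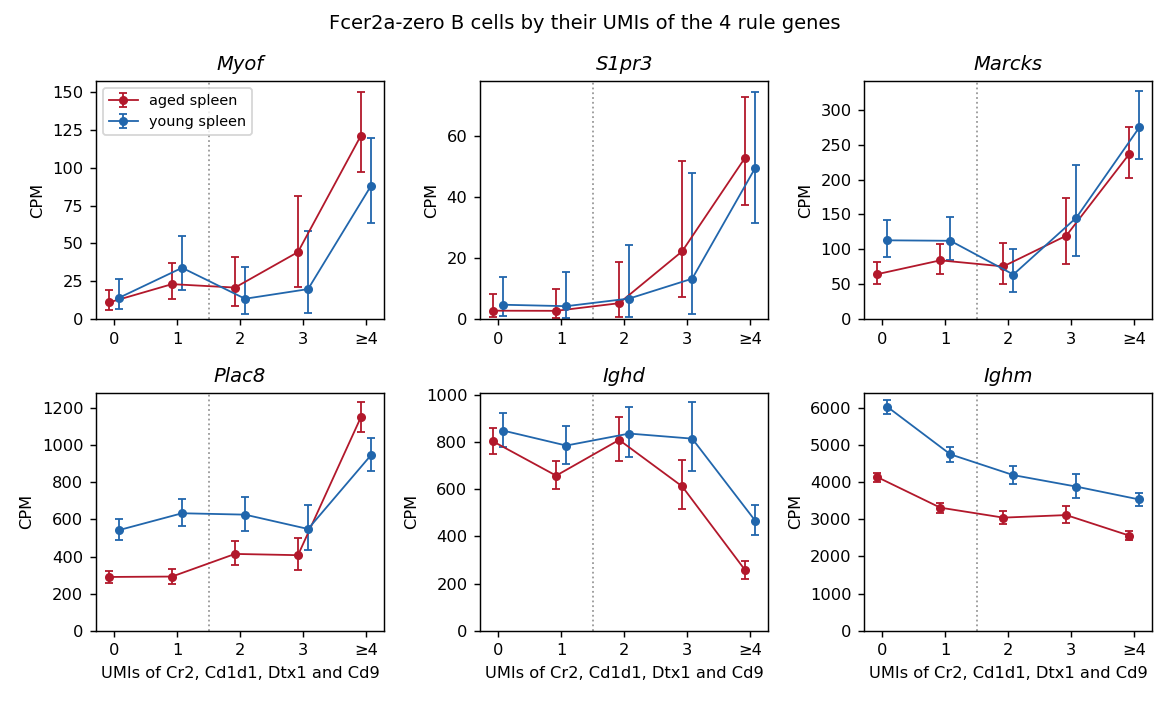
Levels of genes the rule did not use (UMIs per 1e6 UMIs, 95% Poisson intervals) in Fcer2a-zero B cells by their UMIs of the 4 rule genes, aged and young spleen. Myof and S1pr3 are highest at 4 or more rule UMIs, Ighd and Ighm are lowest there, and for Myof, S1pr3 and Ighd cells with 2 rule UMIs lie close to those with 0 or 1.

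Members without a Cr2 UMI, 40 aged and 22 young, had 0 UMIs of S1pr3 in both libraries (upper limits of 14.8 and 33.2 CPM). They also held 140 CPM (aged) and 1744 CPM (young) of Gzma, the granzyme A of cytotoxic lymphocytes, and 409 and 3317 CPM of the chemokine gene Ccl5. Members with both Cr2 and Dtx1 had 43.4 CPM (aged) and 45.1 CPM (young) of S1pr3, 103 and 78.5 CPM of Myof, and 134 and 171 CPM of Gzma. Without Cr2, Myof had 4.01 CPM in aged and 27.0 CPM in young members. Plac8 did not follow in the aged spleen, with 1023 CPM without Cr2 and 906 CPM with both genes. In the young spleen Plac8 had 557 CPM without Cr2 and 942 CPM with both. Members with Cr2 but no Dtx1 UMI held 327 CPM (aged) and 345 CPM (young) of Gzma, and 730 and 491 CPM of Ccl5. RNA of NK cells was thus uneven among the members. Gzma and Ccl5 were highest in those with Cr2 but no Dtx1 in the aged spleen, and in those without Cr2 in the young. At least 2 UMIs of Ncr1, Gzma, Klrb1c, Prf1 and Nkg7 together were held by 19 aged members (8.68%) and 22 young members (13.1%), against 35 (2.83%) and 178 (9.72%) of the aged and young Fcer2a-positive cells. Their summed level was 314 CPM in aged and 742 CPM in young members, against 128 and 509 CPM in aged and young Fcer2a-positive cells. A single barcode held 72 of the 411 aged and 116 of the 678 young UMIs in members. Without the barcode that held most, the sums were 262 CPM (aged) and 624 CPM (young) in members and 117 and 492 CPM in Fcer2a-positive cells. The part of this RNA in the results was not tested. The macrophage markers (Lyz2, Csf1r, C1qa, C1qb and Adgre1) summed to 72.5 CPM in aged and 41.6 CPM in young members, but 63 of their 95 aged UMIs and 12 of their 38 young UMIs lay in a single barcode each, without which the sums were 25.5 CPM (aged) and 28.6 CPM (young). The T cell genes Cd3d, Cd3e and Cd3g were at 0 by the rule. Markers of B-1 cells (Cd5, Spn, Zbtb32 and Bhlhe41) summed to 31.3 CPM in aged and 58.0 CPM in young members, or 19.3 and 52.2 CPM without the barcode that held most, and 6 aged and 11 young members had at least 2 of their UMIs. Plasma cell markers (Jchain, Sdc1, Prdm1, Xbp1 and Mzb1) summed to 432 CPM in aged and 407 CPM in young members, against 276 and 304 CPM in aged and young Fcer2a-positive cells. Most of the sum in members of both libraries was Mzb1, which is also known from marginal zone B cells and whose level is given further on. The part of plasma cell RNA in these sums was not tested.

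The libraries share barcodes. Of the 219 aged members, 207 were also cell barcodes of the young brain library, and all 207 held more UMIs in the aged spleen, by 2.99 to 9.67 times with a median of 5.44. The aged spleen and young brain shared 4856 cell barcodes, where 7.47 would be shared by chance, and the 2 spleens shared 9, of which 0 were aged members and 1 a young member. Without barcodes shared with any other library, 12 aged and 167 young members were left, so the results on aged members rest on the shared barcodes. Values without them rest on 33522 UMIs of these 12 aged cells. For the genes named below they are given, with their interval, where the ratio lay on the other side of 1 or moved by over 1.5 times. The remaining named genes moved less or had under 50 UMIs over the groups compared.

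Marginal zone-like cells made up 11.6% of aged spleen B cells (219 of 1893, exact interval 10.2% to 13.1%) and 7.30% of young spleen B cells (168 of 2301, 6.27% to 8.44%), 1.58 times as much (1.29 to 1.95). The ratio was 1.69 (0.857 to 3.03) once shared barcodes were left out. Of all spleen cells they were 3.88% in the aged and 2.43% in the young library. For every 100 Fcer2a-positive cells there were 17.7 in the aged spleen against 9.17 in the young, 1.93 times as many (1.57 to 2.37).

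The share of B cells without an Fcer2a UMI differed between the libraries too. Fcer2a, known as the low-affinity IgE receptor, had 341 CPM over all aged and 630 CPM over all young B cells, a ratio of 0.541 (0.518 to 0.565), and 34.7% of aged and 20.4% of young B cells had no UMI of it. Among Fcer2a-zero B cells, members were 33.4% of the aged (219 of 656) and 35.8% of the young (168 of 469), a ratio of 0.932 (0.759 to 1.15). Over all B cells Cr2 had 190 CPM in the aged and 290 CPM in the young spleen, Cd9 18 and 30.8 CPM, Cd1d1 19.5 and 21.3 CPM, and Dtx1 102 and 70.7 CPM. Of these 4, Dtx1 stood at a higher level in aged B cells and the others at a lower one. More cells of this kind and a lower Fcer2a level per cell cannot be told apart here.

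Depth moved the share as well. Members had a median of 4979 (aged) and 4489 UMIs (young), above the 4262 and 3857 of aged and young Fcer2a-positive cells. Among B cells of 3000 to 4000 UMIs the share was 5.46% (aged) and 4.55% (young), at 4000 to 6000 UMIs 11.8% and 8.39%, and from 6000 UMIs 25.6% and 16.4%. With every cell thinned to 3000 UMIs before the rule, the shares were 11% (aged, 185 of 1679) and 7.67% (young, 152 of 1981), a ratio of 1.44 (1.15 to 1.79). At 2000 UMIs the ratio was 1.33 (1.04 to 1.70) and at 4000 UMIs 1.43 (1.12 to 1.83). At 1000 UMIs the order turned, with 2.96% of aged (15 of 506) and 4.18% of young B cells (53 of 1268), a ratio of 0.709 (0.371 to 1.28). There 1405 aged and 1096 young B cells no longer met the B cell criteria. Thinning also changed which cells were members. At 1000 UMIs 12 of 15 aged and 18 of 53 young members were members at full depth too. These numbers were 85 of 125 and 68 of 141 at 2000 UMIs, and 139 of 185 and 104 of 152 at 3000 UMIs. The thinned shares thus cover partly other cells.

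Beyond the rule genes, members and Fcer2a-positive cells of the same library were compared as a description, since the rule used this contrast. A gene was counted where its summed CPM differed by at least 2-fold and its UMIs over the 2 classes came to at least 50. In the aged spleen 111 of 8153 genes (1.36%) were higher and 127 (1.56%) lower in members, and in the young spleen 167 of 8682 (1.92%) were higher and 250 (2.88%) lower. In both libraries at once 33 of 8049 genes (0.41%) were higher and 13 (0.162%) lower, and nothing is read from these counts.

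Genes of the marginal zone programme, a list of 17 genes with 13 measured, were mostly higher in members. The median log2 ratio over Fcer2a-positive cells was 1.09 (aged) and 1.18 (young), with 7 and 8 genes at least 2-fold higher, where the median of all genes was -0.01 in both and 1.36% (aged) and 1.92% (young) of all genes were that much higher. Myof (chromosome 19, 37899036 to 38043577) had 78.6 CPM in aged members and 17.9 CPM in aged Fcer2a-positive cells, 4.38 times as much (3.31 to 5.80), and 52.5 and 7.55 CPM in the young classes, 6.96 times (4.67 to 10.3). S1pr3 (chromosome 13, 51408639 to 51422797) was 4.04 times higher in aged and 6.63 times in young members. Plac8 (chromosome 5, 100553725 to 100572245) had 808 CPM in aged members and 279 CPM in aged Fcer2a-positive cells, and 777 and 288 CPM in the young classes, ratios of 2.89 (aged) and 2.70 (young). At the 12 unshared aged barcodes the ratio of Plac8 was 10.6 (5.48 to 22). Fcrl5 was 4.18 times higher in aged and 5.84 times in young members. Pik3r4, a subunit of the lipid kinase complex of autophagy, was 3.49 and 2.26 times higher, and Dph5, which acts in diphthamide synthesis, 2.82 and 2.89 times. The scavenger receptor gene Cd36 was 2.13 times higher in aged and 5.29 times in young members.

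Other genes high in members in both spleens lay outside that list. Rgs10, a regulator of G protein signalling, was 6.71 times higher in aged and 4.09 times in young members, and Zc3h12c, an RNase of the Regnase family, 3.40 and 6.26 times. Atxn1 was 2.66 and 3.97 times higher, Mfhas1 2.76 and 2.97 times, and Bzw2 2.46 and 3.34 times. Pclaf, a partner of the replication clamp PCNA, was 3.32 and 6.56 times higher, but 31 of its 39 UMIs in aged members came from a single barcode. Pdia4, an endoplasmic reticulum disulfide isomerase, was 2.44 and 2.10 times higher and Mzb1, an antibody-folding cofactor named for marginal zone and B-1 cells, 1.71 and 1.47 times.

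Follicular genes ran the other way, with 14 of 15 below Fcer2a-positive cells in each spleen and medians of -0.33 (aged) and -0.54 (young), where 50.8% (aged) and 51.3% (young) of all genes lay below. At unshared barcodes the aged median was -1.16. Bach2, a repressor that holds back plasma cell differentiation, had ratios of 0.514 (aged) and 0.553 (young), and Ccr7, the chemokine receptor of T zone homing, 0.562 and 0.647. The complement regulator Cd55 was at 0.595 (aged) and 0.451 (young), Fchsd2 at 0.608 and 0.543, Cmah at 0.624 and 0.517, and the immediate early gene Egr1 at 0.655 and 0.541. Fchsd2 had 0 UMIs in the 12 unshared aged members and 62 in the Fcer2a-positive cells, a ratio of 0.139 with 3 counts in place of 0. The exact interval reaches up to 0.177. Fry was at 0.389 and 0.442, Fcgrt, the neonatal Fc receptor, at 0.389 and 0.352, Aida at 0.478 and 0.448 and Retreg1, a receptor for turnover of the endoplasmic reticulum, at 0.545 and 0.535. Gmfg was at 0.609 and 0.550 and Smap2 at 0.6 and 0.607. Class II presentation genes had medians of -0.22 (aged) and -0.39 (young), and nuclear genes of oxidative phosphorylation 0.14 and 0.16.

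The other Notch pathway genes were set side by side between the classes. Of 22 listed genes 18 were measured, with medians of 0.03 (aged) and -0.07 (young). The receptor gene Notch2 had 75.5 CPM in aged and 53.6 CPM in young members, against 68.6 CPM in aged and 67.7 CPM in young Fcer2a-positive cells. The target gene Hes1 had 304 CPM in aged members and 147 CPM in aged Fcer2a-positive cells, a ratio of 2.07 (1.83 to 2.33), and 151 and 127 CPM in the young classes, a ratio of 1.19 (0.99 to 1.42).

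Members of the aged and the young spleen were then compared with each other. Of 5224 genes with at least 50 UMIs over both, 130 (2.49%) were at least 2-fold higher and 133 (2.55%) at least 2-fold lower in aged members, around a median log2 ratio of -0.11. With median-of-ratios scaling, which sets that median to 0, the split was 172 higher and 90 lower. In Fcer2a-positive cells of the same libraries 155 of 9302 genes (1.67%) were higher and 205 (2.2%) lower in the aged spleen, with a median of -0.13. The ratios below are followed by those of the Fcer2a-positive cells from the same libraries.

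The neutrophil protease genes Prtn3 and Elane ranked first and second on the higher side, but 214 of 215 and 91 of 91 of their aged UMIs lay in a single barcode each. Orphan nuclear receptor and other rapidly induced genes came next. Nr4a3 (chromosome 4, 48045153 to 48086447), a nuclear receptor gene induced by antigen receptor signals, had 87.0 CPM in aged and 7.66 CPM in young members, a ratio of 11.4 (5.34 to 28.9), seen in 58 aged and 7 young members. In Fcer2a-positive cells its ratio was 5.37, in NK cells 4.36 and in T cells 2.99. Nr4a1, its relative, had 826 CPM in aged and 289 CPM in young members, a ratio of 2.86 (2.50 to 3.29), against 2.22 in Fcer2a-positive cells.
Maff, a small leucine zipper factor, had 54.2 CPM in aged and 7.66 CPM in young members, a ratio of 7.07 (3.26 to 18.2) against 3.76 in Fcer2a-positive cells, and Crem, a cAMP-responsive factor, a ratio of 6.28 against 3.24. The long noncoding RNA gene Lncpint had 212 CPM in aged and 37.2 CPM in young members, a ratio of 5.70 (3.98 to 8.4) against 4.66. All of these were also higher in the aged library in NK and T cells. Without barcodes shared with any library Nr4a1 had a ratio of 2.22 (1.35 to 3.47), and the others had too few UMIs to give 1.

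Enzymes and chromatin factors were named by the same ranking. Hs3st1, which sulfates heparan sulfate, had 188 CPM in aged and 42.7 CPM in young members, a ratio of 4.40 (3.13 to 6.34) against 3.68 in Fcer2a-positive cells. Gch1, the entry enzyme of tetrahydrobiopterin synthesis, had 111 CPM in aged and 25.2 CPM in young members, a ratio of 4.43 against 3.35. Elmsan1, part of a histone deacetylase complex, had 212 CPM in aged and 52.5 CPM in young members, a ratio of 4.04 against 2.60, and Zbtb10 165 and 41.6 CPM, a ratio of 3.96 against 2.58. Without shared barcodes Elmsan1 was at 2.25 (0.588 to 6.13). Tbc1d4, a regulator of vesicle traffic, had a ratio of 6.42 against 18.7, but 34 of its 46 UMIs in aged members were in a single barcode.

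On the lower side stood Ccnd2 (chromosome 6, 127125162 to 127152193), which encodes cyclin D2, a driver of entry into the cell cycle. It had 61.8 CPM in aged and 195 CPM in young members, a ratio of 0.317 (0.241 to 0.415), and was seen in 39 aged and 68 young members. Without shared barcodes its ratio was 0.151 (0.00381 to 0.855). In Fcer2a-positive cells its ratio was 0.779 and in NK and T cells 0.7 and 0.667. Clec2d, a ligand of NK cell receptors, had 23.7 CPM in aged and 84.2 CPM in young members, a ratio of 0.281 against 0.387 in Fcer2a-positive cells. Ifi27l2a, an interferon-induced gene, had 135 CPM in aged and 364 CPM in young members, a ratio of 0.371 against 0.477, and S100a10, the partner of annexin A2, 131 and 298 CPM, a ratio of 0.441 against 0.535. Without shared barcodes Ifi27l2a was at 0.648 (0.277 to 1.29) and S100a10 at 0.199 (0.0240 to 0.725).
Utp20, a factor of ribosome assembly, had a ratio of 0.282 against 0.865 in Fcer2a-positive cells, and Apex1, an endonuclease of DNA repair, 0.294 against 0.838. The small GTPase gene Rhof had a ratio of 0.300 against 0.556, Fam129c 0.313 against 0.550, Ints4, a subunit of the Integrator complex, 0.294 against 0.559, and Usp50 0.282 against 0.321. Ctla2a had a ratio of 0.196 against 0.496 and the chemokine receptor gene Ccr2 0.199 against 0.147. Ctla2a stood at 544 CPM in aged and 625 CPM in young NK cells and Ccr2 at 156 and 402 CPM, while 16 young members held a UMI of each, and neither reached 50 UMIs once barcodes with RNA of another lineage were left out. The part of NK cell RNA in both was not tested. Without shared barcodes Fam129c was at 2.38 (0.843 to 5.45), while Utp20, Apex1 and Ctla2a had 0 UMIs in the 12 aged cells. With 3 counts in place of 0 their ratios were 1.55, 1.42 and 1.16, and the exact intervals reach up to 1.98, 1.80 and 1.46.

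**Figure D3:**
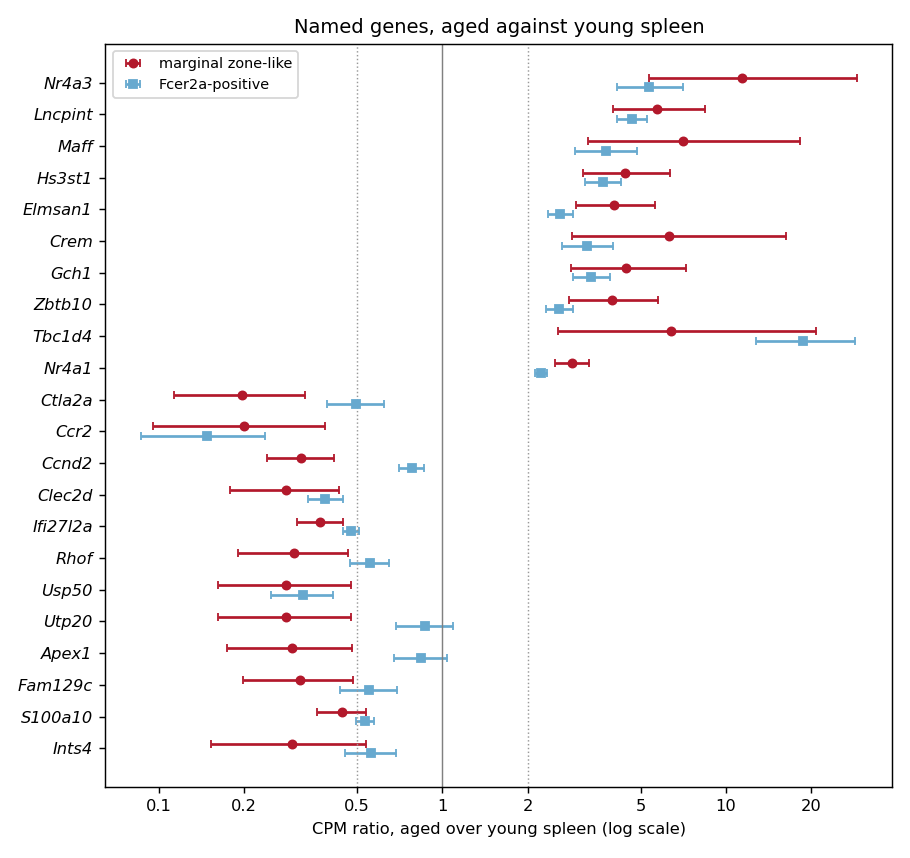
Ratio of aged over young spleen (log axis, 95% intervals for counting error) for named genes in marginal zone-like cells and in Fcer2a-positive cells. Nr4a3, Maff and Lncpint are higher in aged cells of both classes, and Ccnd2 is at 0.317 in marginal zone-like cells and 0.779 in Fcer2a-positive cells.

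Gene lists were described by their counts and medians. Of 27 measured immediate early genes 5 were at least 2-fold higher and 0 lower in aged members, where 2.49% of all genes were higher and 2.55% lower. Their median was 0.31 beside -0.11 for all genes, 0.18 in Fcer2a-positive cells, 0.33 in T cells and 0.48 in NK cells. Without shared barcodes the median in members turned to -0.34. Members of the list differed in direction. Egr2 had 110 CPM in aged and 33.9 CPM in young members, a ratio of 3.24 against 1.85 in Fcer2a-positive cells, and Fosl2 64.1 and 18.6 CPM, a ratio of 3.45 against 4.21. Fos had 484 CPM in aged and 905 CPM in young members, a ratio of 0.535 against 0.615, and Dusp2 273 and 434 CPM, a ratio of 0.629 against 0.65. Without shared barcodes Fos was at 0.296 (0.135 to 0.564).

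Genes of the NF-kB pathway had a median of 0.25 in members and 0.24 in Fcer2a-positive cells, with 0.44 in T cells and 0.64 in NK cells. In members 13 of 17 lay above a ratio of 1, where 39% of all genes did, and in Fcer2a-positive cells 13 of 18, where 34.7% did. Without shared barcodes the median in members was 0.052. Rel, a subunit used by activated B cells, had 903 CPM in aged and 466 CPM in young members, a ratio of 1.94 against 1.90 in Fcer2a-positive cells. Cd83, a surface protein of activated B cells, had 512 CPM in aged and 210 CPM in young members, a ratio of 2.44 against 2.33, and the costimulator gene Cd86 211 and 106 CPM, a ratio of 1.99 against 1.5. Without shared barcodes Cd83 was at 1.12 (0.478 to 2.26) and Cd86 at 0.869 (0.176 to 2.62). Cxcr4, the receptor for CXCL12, had 625 CPM in aged and 341 CPM in young members, a ratio of 1.83 against 1.53. Among survival genes the pro-death Bcl2l11 had 158 CPM in aged and 72.2 CPM in young members, a ratio of 2.19 against 1.58, and the anti-death Bcl2a1b 210 and 103 CPM, a ratio of 2.04 against 2.10. Without shared barcodes Bcl2l11 was at 0.817 (0.0969 to 3.07).

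The Notch list had 11 of 22 genes measured, with a median of -0.20, against -0.01 in Fcer2a-positive cells, and 2 genes at least 2-fold higher, where 2.49% of all genes were. Hes1 had 304 CPM in aged and 151 CPM in young members, a ratio of 2.01 (1.65 to 2.46), and was seen in 104 aged and 58 young members. Without shared barcodes the ratio was 2.73 (1.46 to 4.75). It was 1.16 (1.06 to 1.27) in Fcer2a-positive cells, 1.55 in NK cells and 0.876 in T cells. Maml2, a coactivator of the Notch complex, had 42.7 CPM in aged and 18.6 CPM in young members, a ratio of 2.30 (1.32 to 4.22) against 1.28 in Fcer2a-positive cells. The rule gene Dtx1 had a ratio of 1.05 in members and 1.51 in Fcer2a-positive cells, Cr2 0.918 against 0.583, Cd1d1 0.761 against 0.909 and Cd9 0.617 against 0.538. Without shared barcodes Dtx1 was at 1.59 (0.831 to 2.77) and Cd9 at 2.22 (0.787 to 5.06) in members.

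The marginal zone programme had 12 genes measured between the ages and a median of -0.04, against -0.17 in Fcer2a-positive cells, with 0 genes at least 2-fold higher and 1 lower, where 2.49% and 2.55% of all genes were. The lower one was Cd36, at 34.3 CPM in aged and 73.3 CPM in young members, a ratio of 0.468 against 1.16 in Fcer2a-positive cells. Plac8, at 808 CPM in aged and 777 CPM in young members, Marcks at 169 and 185 CPM and Mzb1 at 341 and 330 CPM had intervals of the ratio that include 1. Their ratios were 1.04, 0.916 and 1.03, against 0.971, 0.993 and 0.888 in Fcer2a-positive cells. Myof was at a ratio of 1.5 (1.05 to 2.15) against 2.38 and Pik3r4 at 1.67 (1.29 to 2.19) against 1.08. Without shared barcodes the median of the list was 0.39, with Plac8 at 1.70 (1.23 to 2.31), Marcks at 2.12 (1.11 to 3.73) and Cd36 at 0.805 (0.0955 to 3.02).

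Interferon response genes were mostly lower in aged members, with a median of -0.70 over 20 of 38 genes, beside -0.11 for all genes. Of these 18 lay below a ratio of 1, where 61% of all genes did, 4 were at least 2-fold lower and 1 higher, where 2.55% and 2.49% of all genes were. Isg15, a ubiquitin-like modifier, had 14.5 CPM in aged and 39.4 CPM in young members, a ratio of 0.368 against 0.468 in Fcer2a-positive cells. Ifi47 had 16 and 36.1 CPM, a ratio of 0.444 against 0.430, and the signal transducer Stat2 22.1 and 49.2 CPM, a ratio of 0.449 against 0.541. The higher one, Ly6c2, had 61 of its 76 aged UMIs in a single barcode. The same list had a median of -0.64 in Fcer2a-positive cells, -0.49 in T cells and -0.51 in NK cells, and was -0.94 in members without shared barcodes. Heat shock genes had a median of -0.47 in members and 0.00 in Fcer2a-positive cells, with the mitochondrial chaperonin Hspd1 at 149 CPM in aged and 324 CPM in young members, against 91.1 and 127 CPM in aged and young Fcer2a-positive cells. Of 195 aged and 296 young Hspd1 UMIs, 57 and 61 came from a single barcode each, and without shared barcodes the ratio was 0.0917 (0.00231 to 0.515). Hsp90ab1, a cytosolic chaperone, had 1336 CPM in aged and 2083 CPM in young members, a ratio of 0.641 against 0.885. Nuclear genes of oxidative phosphorylation were below a ratio of 1 in 66 of 74 cases, where 61% of all genes were, with a median of -0.40 in members and -0.35 in Fcer2a-positive cells, and none was 2-fold different. Mitochondrial transcripts had a median of 0.10, against 0.22 in Fcer2a-positive cells, and members a median mitochondrial share of 6.32% (aged) and 5.70% (young). Cell cycle genes had a median of -0.46, with 3 of 15 at least 2-fold lower, where 2.55% of all genes were, and the list's median was -0.25 in Fcer2a-positive cells, 0.07 in T cells and 0.78 in NK cells. Cytosolic ribosome genes had a median of -0.03 in members and -0.04 in Fcer2a-positive cells. Without shared barcodes the median in members turned to 0.14 for cytosolic ribosome genes and -0.014 for mitochondrial transcripts. For cell cycle genes it came to 0.12, but Mcm3 and Mcm6 had 0 UMIs in the 12 aged cells there. With 3 counts in place of 0 these genes entered at ratios of 1.62 and 1.53, so this median shows no higher level.

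**Figure D4:**
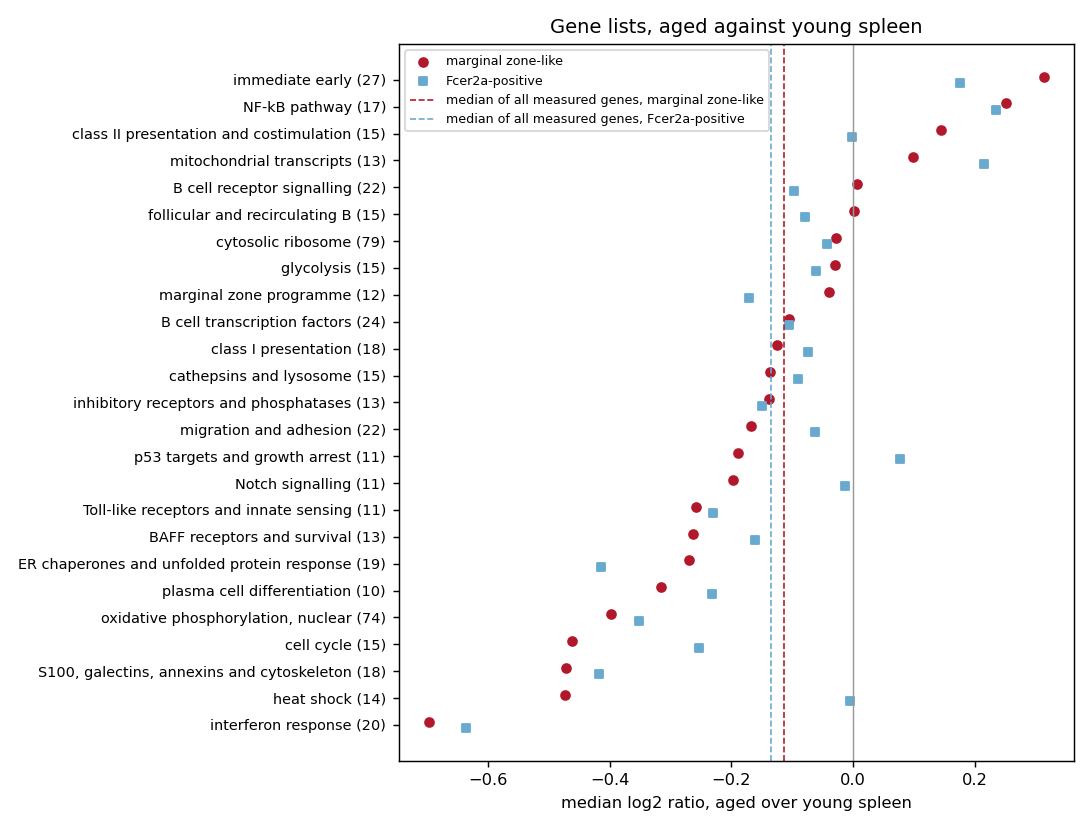
Median log2 ratio of aged over young spleen for 25 gene lists with at least 10 measured genes, in marginal zone-like and Fcer2a-positive cells, beside the median of all genes. Immediate early and NF-kB lists lie highest, and interferon response lowest, in marginal zone-like cells with all barcodes; heat shock genes are at -0.47 in marginal zone-like and 0.00 in Fcer2a-positive cells.

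The 24 measured transcription factors of B cells had a median of -0.11, that of all genes and of the same list in Fcer2a-positive cells, with 14 below a ratio of 1, where 61% of all genes were. Spib, an Ets factor, had 141 CPM in aged and 260 CPM in young members, a ratio of 0.542 against 0.664 in Fcer2a-positive cells, and Bcl11a 213 and 391 CPM, a ratio of 0.545 against 0.532. Tnfrsf13b, the receptor TACI, had 102 CPM in aged and 183 CPM in young members, a ratio of 0.560 against 0.656, and Irf4 365 and 218 CPM, a ratio of 1.67 against 2.13. Without shared barcodes all 4 lay on the other side of 1, with intervals that include 1: Spib at 1.13 (0.536 to 2.12), Bcl11a at 1.06 (0.574 to 1.80), Tnfrsf13b at 1.62 (0.764 to 3.06) and Irf4 at 0.829 (0.301 to 1.84). Rgs1, which dampens chemokine signals, had 99.9 CPM in aged and 181 CPM in young members, a ratio of 0.554 against 0.963.

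Immunoglobulin genes were described apart because RNA released from plasma cells can reach any droplet. Ighm was at a ratio of 0.736 and Ighd at 0.745 in aged over young members, against 0.794 and 0.797 in Fcer2a-positive cells. UMIs of switched heavy chains outnumbered those of Ighm and Ighd in 0 of 219 aged and 0 of 168 young members, which allows shares of up to 1.67% and 2.17% by the exact interval. Jchain had 46 UMIs in aged and 1 in young members, and its level in aged members, 35.1 CPM, lay near the 26.7 CPM of aged NK cells. Lambda UMIs outnumbered kappa UMIs in 8 of 219 aged members (3.65%, 1.59% to 7.07%) and 23 of 168 young members (13.7%, 8.88% to 19.8%), against 6.22% and 9.55% of aged and young Fcer2a-positive cells. Iglc1 had 85.5 CPM in aged and 696 CPM in young members, a ratio of 0.123, against 260 and 688 CPM in aged and young Fcer2a-positive cells. A single young barcode held 133 of the 636 young UMIs. Iglc1, Iglc2 and Iglc3 are near-identical in parts, so how the counting split their reads is uncertain.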

How the data were processed

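UMI counts per gene and barcode were deposited by the authors for 4 libraries, unfiltered and not normalized, with 31053 mouse genes and 6794880 barcodes, per the file headers, which name software version 3.1.0. Per the submitters' processing notes the tool was Cell Ranger 1.3.1 and the build GRCh38, a human build, which conflicts with the mouse gene identifiers, so the build behind the counts is uncertain. The authors' cluster tables were not used here. Members, gene lists and named genes were chosen with earlier results of these data known.

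For each class and library, counts of all cells were added up and given per 1e6 UMIs (CPM), with exact Poisson intervals, exact Clopper-Pearson intervals for shares and exact conditional binomial intervals for ratios, at 95% and for counting error only. Genes with at least 50 UMIs over both groups were compared, and 3 counts over the group stood in for a gene at 0. In each comparison the first 12 genes each way, ranked by the interval bound nearest to 1, were named, plus the rule genes, immunoglobulin genes and up to 5 members of each of 32 lists. Unnamed gene models, ribosomal, mitochondrial and sex genes, and genes whose level lay under 10% of that in another cell class were set aside. Members numbered 219 and 168, with 1310699 and 913975 UMIs in the aged and young spleen. The library matrices held 40628623 and 39866955 UMIs in the aged and young spleen. T and NK cells used beside the members were chosen by at least 2 and 5 UMIs of their markers and fewer than 2 of B cell genes. Doublets were not removed beyond the rule; Scrublet, run through scanpy 1.11.5, marked 172 (3.05%) aged and 244 (3.54%) young cells, 8 and 12 of them members, which were left out as an alternative. Other alternatives changed the cell filters, depth, rule, shared barcodes, scaling and count minimum, and some were added after the data were seen. Gene coordinates are from GENCODE M21 (GRCm38), matched by gene ID. The ratio calculation was tested on simulated data. Python 3.11.15, numpy 2.4.6, scipy 1.17.1 and pandas 2.3.3 were used. The result of 1 named gene is not reported here.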

Additional observations from a re-analysis of the deposited data

Results flagged for a closer look

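In the young brain library, outside the spleens, 36 barcodes met the criteria for marginal zone-like cells, of 303 with B cell RNA. The aged brain had 2 barcodes with B cell RNA and no member, too few to set beside it. Of these 36, 32 lay at barcodes that another library also holds, 21 of them at barcodes of aged spleen members. Ighg2b, a switched immunoglobulin gene, had an aged over young ratio of 0.209 in marginal zone-like cells and 2.72 in Fcer2a-positive cells. The difference between the classes was not tested, and all 20 UMIs of the young members came from a single barcode, with 6 UMIs in the aged members.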

How the results depend on the processing

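No paired analysis was possible because each group has 1 library, and for the same reason no replicate could be left out. The share of marginal zone-like cells among B cells, at 1.58 times in the aged over the young spleen, was 2.23 times with at most 5% mitochondrial UMIs (45 aged and 49 young members) and turned to 0.709 times at 1000 UMIs per cell; the other alternatives gave 1.33 to 1.69 times, lowest at 2000 UMIs per cell. Between the ages, 130 genes were at least 2-fold higher and 133 lower in aged members, against 53 and 42 at the 5% mitochondrial limit, 1 and 9 at 1000 UMIs per cell, 70 and 43 with at least 100 UMIs per gene, 1304 and 2232 with no minimum, 406 and 715 at a fold of 1.5, 172 and 90 with median-of-ratios scaling, and 132 and 190 with the mean of per-cell CPM. At 3000 UMIs per cell 73 of 2823 measured genes were higher, and without barcodes shared with any library 534 of 2797 were lower. Between the classes, 33 genes were higher and 13 lower in members of both spleens, against 11 and 8, 1 and 3, 16 and 7, 2042 and 66, and 157 and 124 under the first 5 of these settings, 55 and 61 with at least 3 UMIs of the rule genes, 20 and 24 without barcodes holding RNA of another lineage, and 1 and 1 without shared barcodes. There 14 were higher at 3000 UMIs, 53 were higher against Fcer2a-positive cells with fewer than 2 rule UMIs, and 26 were lower with each gene's barcode of most UMIs left out. Measured genes differed in number between settings, so these counts have unlike totals. Between the ages there were 5224 as reported, 1677 at the 5% mitochondrial limit and 156 at 1000 UMIs per cell. With at least 100 UMIs per gene there were 3101, and with no minimum 12993. Between the classes the numbers in this order were 8049, 3559, 382, 6389 and 13548, with 273 without shared barcodes. The settings added after the data were seen were 3000 UMIs and, for the share, 2000 and 4000 UMIs per cell, the barcode of most UMIs, the Fcer2a-positive cells with fewer than 2 rule UMIs and B cells of 4000 to 6000 UMIs. Fewer genes were measured at 100 UMIs per gene and at 1000 UMIs per cell, the latter with fewer cells too. How far this accounts for the lower counts there was not tested, nor was the cause elsewhere.

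For 518 single-gene ratios these settings gave 5791 values within the interval of the reported ratio, 1110 outside it and 23 called ratios that turned to the other side of 1. For 96 list medians 1275 values stayed close, 135 moved and 6 turned. Between the ages (aged over young members) the following turned. Rps27l was at 1.14 at the 5% mitochondrial limit, Hspa1a at 0.984 with at least 3 rule UMIs, Lgals1 at 1.05 without Scrublet doublets, and Ly6c2 at 0.890 and Lgals3 at 0.594 with the mean of per-cell CPM. Without shared barcodes Ctla2a was at 1.16, Utp20 at 1.55, Apex1 at 1.42 and S100a6 at 1.35. Each of these genes had 0 UMIs in the 12 aged cells, so its ratio rests on 3 counts in place of 0 and shows no higher level. Fam129c was at 2.38 and Bcl2l11 at 0.817 without shared barcodes, and the medians of the age-associated and transitional B lists at 0.046 and 0.66. Between the classes (members over Fcer2a-positive cells) these turned in the aged spleen: Lgals3 at 0.968 with the mean of per-cell CPM and 0.710 without the barcode of most UMIs, Mfhas1 at 0.610 at 4000 to 6000 UMIs, the age-associated B list at -0.11 with at least 3 rule UMIs and -0.066 without Cd9, and the immunoglobulin constant list at 0.18 without shared barcodes. In the young spleen they were Itgax at 0.862 at the 5% mitochondrial limit, Hspd1 at 0.907 and the heat shock list at -0.030 at 1000 UMIs, Mcm3 at 0.908 at 3000 UMIs, Apex1 at 0.902 at 4000 to 6000 UMIs, Ifitm3 at 1.70 without RNA of another lineage, Fosl2 at 0.898, Mx1 at 0.837 and Usp18 at 0.247 with at least 3 rule UMIs, and Usp18 at 0.903 without the barcode of most UMIs.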

Other observations

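Genes of plasma cell differentiation, innate sensing and the cell surface gave further values in aged and young members. Ell2, an elongation factor used in antibody secretion, had 69.4 CPM in aged and 25.2 CPM in young members, a ratio of 2.76 against 2.29 in Fcer2a-positive cells, and Bhlhe40, a transcriptional repressor, 207 and 103 CPM, a ratio of 2.01 against 1.65. Without shared barcodes, on 12 aged cells, Bhlhe40 was at 1.15 (0.306 to 3.04). Irak3, an inhibitor of Toll-like receptor signals, had 32.0 CPM in aged and 15.3 CPM in young members, a ratio of 2.09 (1.12 to 4.15), and 31.0 and 30.1 CPM in aged and young Fcer2a-positive cells. Cfp, which encodes properdin of the alternative complement pathway, had 14.5 CPM in aged and 38.3 CPM in young members, a ratio of 0.379 against 0.902. The adhesion receptor gene Ceacam1 had 21.4 CPM in aged and 49.2 CPM in young members, a ratio of 0.434 against 0.570 in Fcer2a-positive cells. Among calcium-binding and galectin genes the median was -0.47 over 18 genes in members and -0.42 in Fcer2a-positive cells, with Lgals1, galectin 1, at 42.7 CPM in aged and 108 CPM in young members, though at a ratio of 1.05 without barcodes that Scrublet marked, and with 0 UMIs in the 12 aged cells at unshared barcodes. In the endoplasmic reticulum, the chaperone gene Hsp90b1 had 238 CPM in aged and 479 CPM in young members, a ratio of 0.497 against 0.596.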
